A study of Mus musculus with 8 samples.

Results

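Globins are the protein chains of haemoglobin, and 7 of their genes were followed here among the 31054 features of a mouse bone marrow series: the adult alpha genes Hba-a1 and Hba-a2, the adult beta genes Hbb-bs and Hbb-bt, and the embryonic-type genes Hbb-bh1, Hbb-y and Hba-x. They were taken by symbol from the feature tables, with no measured value used in the choice. The series asks what the hedgehog-pathway factor Gli1 does in blood-forming cells when JAK2V617F drives myelofibrosis. Donors 8 weeks old, either wild type (WT) or Gli1 knockout, gave marrow that was transduced by retrovirus with JAK2V617F, the constitutively active kinase, or with the unmutated control JAK2WT. Every recipient was a female B6.SJL mouse of 8 to 10 weeks irradiated with 10.5 Gy, and marrow was taken 112 days after transplantation. The 4 groups were 1 droplet library each, pooled from 3 mice. Where 4 values follow each other, the first belongs to wild-type marrow carrying JAK2WT, the next to wild-type marrow carrying JAK2V617F, and then come the knockout carrying JAK2WT and the knockout carrying JAK2V617F. With 1 library a group there is no replicate, no test and no p-value below, and single mice were not traced here (the hashtag libraries were not analysed here). Intervals in parentheses are at 95% and cover counting error only.

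Cells positive for TER119, CD3, B220, GR1 or CD11b had been removed from the marrow, which was then sorted as viable and lineage-negative, with and without the GFP of the vector. TER119 marks later red cell precursors, so the erythroid cells here are those that passed a gate set against haemoglobin-rich cells, and cells already made rich in globin are under-represented by design. The libraries held 59165347 to 114847114 UMIs (unique molecular identifiers, one per captured transcript), and 7196, 3432, 3770 and 6035 cells were kept. Pairs of libraries shared 5 to 14 barcodes of kept cells, and 0 barcodes were erythroid in both libraries of a pair. The genotypes also differed in donor sex: counts of Xist, which the inactive X expresses, were 78795, 36779, 867 and 273 over the cells kept, while 4 genes of the Y chromosome summed to 1, 0, 9079 and 11888. Sex and Gli1 genotype cannot be told apart in any comparison of the genotypes.

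Haemoglobin of adult red cells is a tetramer of paired alpha and beta chains around heme, and precursors keep the output of both clusters in balance because unpaired alpha chains precipitate. In the mouse the alpha-type genes lie together on chromosome 11 and the beta-type genes on chromosome 7, each cluster under a distant enhancer, and the factors KLF1 and GATA1 drive both. Hbb-bs and Hbb-bt are neighbouring copies of the adult beta gene, while Hbb-y, Hbb-bh1 and the alpha-type Hba-x serve the primitive red cells of the embryo.

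In GENCODE M21 on GRCm38 (the assembly also called mm10), Hba-x lay at chromosome 11, 32276400 to 32278116, Hba-a1 at 32283511 to 32284465 and Hba-a2 at 32296489 to 32297298, on the plus strand. On the minus strand of chromosome 7, Hbb-bt lay at 103812524 to 103813996, Hbb-bs at 103826534 to 103828096, Hbb-bh1 at 103841637 to 103843164 and Hbb-y at 103851749 to 103853216. All 7 gene identifiers of the files matched this annotation.

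The results below turn on how the copies of a pair differ, so the 120 bases before the RefSeq start site of the 4 adult genes are shown (RefSeq, GRCm38.p6, read 5′ to 3′ along the gene). Capitals mark letters found on either strand, with overlaps allowed: the CACCC box, the CCAAT box, the GATA-type letters AGATAA and also TGATAA, and the TATA-type letters TATAAA and also ATAAAA. They are at chr11:32283552-32283671 (plus strand) for Hba-a1, chr11:32296372-32296491 (plus) for Hba-a2, chr7:103827929-103828048 (minus) for Hbb-bs and chr7:103813924-103814043 (minus) for Hbb-bt.
Hba-a1: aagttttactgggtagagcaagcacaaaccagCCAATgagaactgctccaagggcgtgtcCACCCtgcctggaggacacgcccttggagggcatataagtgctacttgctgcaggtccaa
Hba-a2: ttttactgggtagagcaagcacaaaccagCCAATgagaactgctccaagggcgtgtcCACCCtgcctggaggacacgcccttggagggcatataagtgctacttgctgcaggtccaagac
Hbb-bs: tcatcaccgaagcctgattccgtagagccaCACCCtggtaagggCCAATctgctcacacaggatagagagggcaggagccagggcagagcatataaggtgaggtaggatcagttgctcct
Hbb-bt: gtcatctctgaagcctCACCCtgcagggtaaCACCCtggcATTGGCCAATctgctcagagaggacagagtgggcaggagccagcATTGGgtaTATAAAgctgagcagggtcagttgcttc

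The alpha copies were alike at 117 of 123 aligned positions (95.1%) and the beta copies at 91 of 122 (74.6%). Every adult window held CACCC, the letters KLF1 is known to bind, and CCAAT, the letters NF-Y is known to bind. Hbb-bt held CACCC at 2 places, at 104 to 100 and 89 to 85 bases before the start, against 1 in Hbb-bs at 90 to 86. Hbb-bt also held CCAAT on the printed strand at 75 to 71 bases and on the other strand at 80 to 76 and 36 to 32, against 1 in Hbb-bs at 76 to 72. TATAAA stood at 28 to 23 bases in Hbb-bt, and none of the searched TATA letters stood in the windows of Hbb-bs, Hba-a1 and Hba-a2. Over the 250 bases before the start of 32851 promoters, the CACCC box occurred in 52.0%, the CCAAT box in 33.8%, either TATA-type match in 22.8% and either GATA-type match in 16.6%, so the letters alone are common.

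The copies are also alike in the part that a 3′ library reads. Of the 90-base windows in the last 300 bases of the annotated Hba-a1 transcript, 57.3% occurred exactly in Hba-a2, and of those of Hbb-bs 24.6% occurred in Hbb-bt. The split between Hba-a1 and Hba-a2 is therefore uncertain, and the split between Hbb-bs and Hbb-bt less exposed. The sum of a pair does not depend on how reads are split, but reads dropped because they fit both copies would lower it. Such a loss would touch alpha more than beta, and so the alpha share, and was not tested.

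Erythroid cells were found without the globins: all globin genes were left out of the clustering, and 2 of 30 clusters were named erythroid from 14 and 12 detected markers. The first had Slc4a1, the anion exchanger of the red cell membrane, and Cldn13 among its leading genes, and the second by Car1 and Mt2. Together they held 63, 1231, 49 and 50 cells, which is 0.875%, 35.9%, 1.30% and 0.829% of kept cells. Klf1, the erythroid activator of adult globins, measured 207, 295, 279 and 223 CPM in these cells (UMIs per 1000000 UMIs of the summed cells). In all other kept cells it measured 0.776, 3.61, 1.88 and 2.32 CPM. Klf1 was among the markers that named the clusters, so its high level there is partly built in. Gata1, which was not among those markers, measured 101.1, 145, 135 and 129 CPM against 1.22, 7.24, 2.76 and 7.73 CPM.

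In erythroid cells the 4 adult genes together measured 10272, 20831, 4683 and 50796 CPM. Of all adult globin UMIs in kept cells, 92.8%, 98.9%, 76.5% and 93.2% lay in erythroid cells. The cell with the median level held 2.41, 142, 0.549 and 135 adult globin UMIs per 10000 UMIs. By that median both JAK2V617F libraries were high and both JAK2WT libraries low, whereas the summed CPM put Gli1 knockout with JAK2V617F far above the rest.

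**Figure D1:**
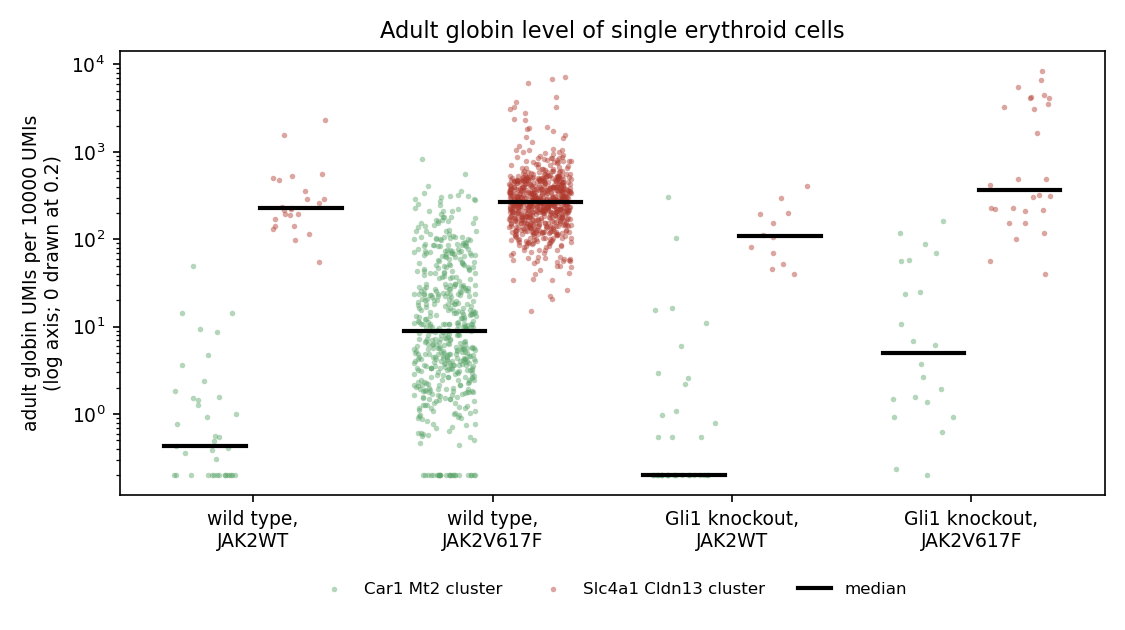
Adult globin UMIs per 10000 UMIs of single erythroid cells (log axis, 0 drawn at 0.2) by library, with points for cells and bars for medians of the Car1 Mt2 and the Slc4a1 Cldn13 cluster. The Slc4a1 Cldn13 medians are 227, 266, 108 and 369 from left to right, and 11 cells of the right-hand library lie apart at the top.

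Of the 4 adult genes, Hbb-bs measured 3780, 9473, 1479 and 23349 CPM in erythroid cells, and was the highest of the 4 in each library but Gli1 knockout with JAK2WT. There Hba-a1 was highest. Hba-a1 measured 3289, 4984, 1713 and 10851 CPM. Hbb-bt measured 2150, 4691, 1057 and 8970 CPM, and Hba-a2 was the lowest in every library at 1053, 1683, 435 and 7626 CPM. These transcripts are of similar length and the reads come from their 3′ ends, so the CPM are compared without a length scale. A UMI of Hbb-bs was found in 33 of 63, 1139 of 1231, 19 of 49 and 44 of 50 erythroid cells.

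With JAK2V617F, the adult globins were higher in erythroid cells of both genotypes. In wild type the log2 ratio of CPM with 10 CPM added was 0.60 for Hba-a1, 0.67 for Hba-a2, 1.32 for Hbb-bs and 1.12 for Hbb-bt. Hbb-bs and Hbb-bt, 2 of the 4 measured members, were thus at least 2-fold higher, against 1.78% of the 3203 genes measured at 50 CPM or more in either library. The sum was 2.03-fold higher (1.99 to 2.07). In Gli1 knockout the 4 log2 ratios were 2.66, 4.10, 3.97 and 3.07, all at least 2-fold higher against 2% of 3242 genes, and the sum was 10.8-fold higher (10.5 to 11.2). The size of the knockout value rests on few cells: 11 cells, described below, held 77.9% of its erythroid adult globin UMIs with JAK2V617F. Without cells of that kind in any library the sum was 2.60-fold higher in Gli1 knockout and 2.11-fold higher in wild type, and the 4 knockout log2 ratios were 1.09, 1.33, 1.45 and 1.66. The share of erythroid cells in the Slc4a1 Cldn13 cluster moved along in both genotypes, from 24 of 63 to 705 of 1231 cells and from 12 of 49 to 28 of 50. Within that cluster alone the sum was 0.915-fold (0.898 to 0.933) in wild type and 6.60-fold (6.37 to 6.85) in Gli1 knockout. There 0 of the 4 members were at least 2-fold higher or lower in wild type, where 4.43% of genes were called higher and 2.37% lower. In Gli1 knockout 4 of 4 were higher, beside 5.21% of genes higher and 3.5% lower. The same 11 cells all lay in this cluster: without cells of their kind the sum there was 1.56-fold higher in Gli1 knockout, and the largest of the 4 log2 ratios was 0.89.

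Over all erythroid cells the genotype comparison changed direction with JAK2, and it did not do so without the cells of the latest stage. With JAK2V617F the log2 ratio of Gli1 knockout over wild type was 1.12 for Hba-a1, 2.17 for Hba-a2, 1.30 for Hbb-bs and 0.93 for Hbb-bt, so 3 of the 4 were at least 2-fold higher against 0.958% of 3130 genes. With JAK2WT it was -0.94, -1.26, -1.35 and -1.02, so 3 of the 4 were at least 2-fold lower against 0.625% of 3199 genes. The first of these rests on few cells. In Gli1 knockout with JAK2V617F, 11 cells held 77.9% of all erythroid adult globin UMIs. These cells had at least 100 UMIs of late erythroid genes per 10000 outside the globins. Without cells of that kind in either library the log2 ratio of the sum was -0.67 in place of 1.29, and -0.98 with JAK2WT. Within the Slc4a1 Cldn13 cluster, Gli1 knockout had 4 of 4 members at least 2-fold higher with JAK2V617F, beside 2.44% of genes higher and 0.449% lower. Without the latest cells the 4 log2 ratios there were -0.03, -0.09, -0.73 and -0.08, and none of the 4 was called. With JAK2WT, 3 of 4 were lower there, beside 4.72% of genes higher and 3.74% lower.

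Ordering the erythroid cells by a list of late erythroid genes, which holds no globin, showed where along maturation the libraries differ. The list (Alas2, Slc4a1, Rhag and others) gave 4 ranges, under 10, 10 to 30, 30 to 100, and 100 or more UMIs per 10000 outside the globins. The ranges are cuts through a continuum, and several of the same genes had named the clusters. Wild type with JAK2V617F had 137, 455, 608 and 31 cells in them, and 147 of its cells lay within 10% of the edge at 30. In the range 30 to 100 the adult globins measured 37232, 31593, 16957 and 25070 CPM in the 4 libraries, from 18, 608, 13 and 17 cells. In the range 10 to 30 they measured 2375, 7712, 1015 and 5007 CPM. The JAK2V617F libraries were thus higher in the earlier range in both genotypes. In the later range wild type with JAK2WT was the highest, while in Gli1 knockout the JAK2V617F library was still the higher. A range does not hold cells of 1 stage. In the range 10 to 30, 4 of 32, 103 of 455, 2 of 19 and 2 of 15 cells lay in the Slc4a1 Cldn13 cluster.

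In the latest range globin made up a large part of the RNA. The 11 such cells of Gli1 knockout with JAK2V617F measured 506349 CPM, which is 50.6% of their UMIs, and single cells ran from 16.3% to 84.2%. The 31 such cells of wild type with JAK2V617F measured 166226 CPM and ran from 1.20% to 72.4%. Cells of this range were low in total UMIs, with medians of 5521 UMIs (Gli1 knockout) and 5504 UMIs (wild type) per cell against 17156 in the range below in the first and 14026 in the second. The JAK2WT libraries had 2 and 1 cells there, too few to describe.

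The alpha share of adult globin, the measure of chain balance at the RNA level, was lower with JAK2V617F in both genotypes. In wild type it was 42.3% (41.3 to 43.2) for JAK2WT and 32.0% (31.9 to 32.2) for JAK2V617F, and it was 45.9% (44.2 to 47.6) in Gli1 knockout with JAK2WT and 36.4% (35.9 to 36.8) with JAK2V617F. Alpha UMIs were thus fewer than beta UMIs in each library, at 0.732, 0.471, 0.847 and 0.572 per beta UMI. Reads dropped between the like alpha copies would lower these ratios, and this was not tested. The share was lower with JAK2V617F under each of 8 settings run, by 10.2 to 11.7 percentage points in wild type and by 5.90 to 10.7 in Gli1 knockout. Gli1 knockout was above wild type by 3.59 points with JAK2WT and 4.37 with JAK2V617F, but with JAK2WT the medians over cells given next had the other order.

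The median single cell was also lower with JAK2V617F in both genotypes. Over cells with at least 50 adult globin UMIs the median alpha share was 43.9%, 32.7%, 42.5% and 36.6% in 23, 788, 10 and 35 cells. The middle 50% of cells ran from 38.8% to 45.7% in wild type with JAK2WT and from 26.2% to 38.3% with JAK2V617F. These ranges did not meet. In Gli1 knockout they ran from 39.0% to 47.6% and from 30.5% to 40.8% and overlapped. By maturation, the share in the range 30 to 100 was 41.6%, 32.4%, 43.8% and 39.7%, and in the range 10 to 30 it was 47.6%, 29.1%, 61.7% and 36.3%. The gap between JAK2WT and JAK2V617F was thus wider in the earlier range in both genotypes. The 61.7% (56.6 to 66.7) of Gli1 knockout with JAK2WT came from 371 UMIs in 19 cells, and how far single cells set it was not tested.

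In the erythroid cells with the least globin the libraries differed more widely. The Car1 Mt2 cluster had an alpha share of 72.4% (65.1 to 78.9) and 22.7% (22.2 to 23.3) in the wild-type libraries, JAK2WT first. In the knockout libraries it was 50.4% (41.6 to 59.1) and 38.6% (35.8 to 41.4). These shares came from 174, 21402, 135 and 1189 UMIs. In Gli1 knockout with JAK2WT, at least 50 of the 135 UMIs lay in 1 cell, which had 30.2% alpha. The share without that cell was not computed. Erythroid cells with 1 to 9 adult globin UMIs had 71.1%, 21.8%, 65.6% and 19.4% alpha, from 38, 887, 32 and 36 UMIs. These counts are small, and granulocyte-monocyte progenitors and promyelocytes, which should not make globin, held a mean of 0.0889, 1.72, 0.115 and 0.354 adult globin UMIs per cell. The last mean was 0.173 without the 1 cell highest in globin. How far such stray RNA enters the lowest cells was not tested.

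**Figure D2:**
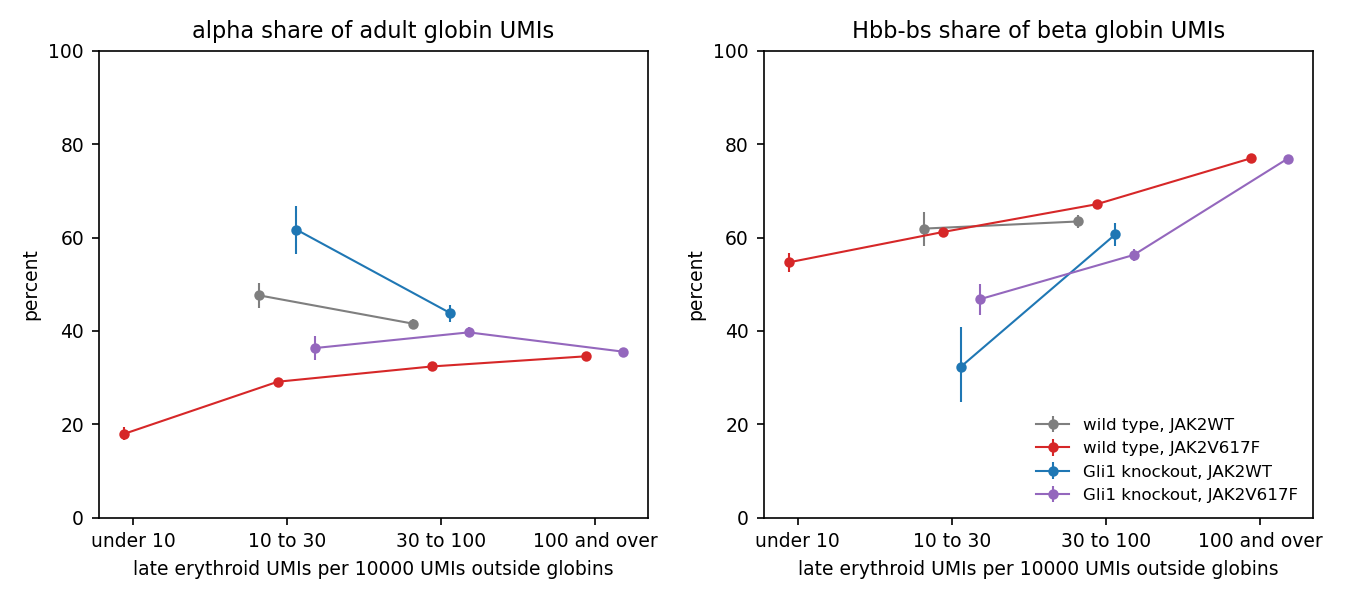
Alpha share of adult globin UMIs (left) and Hbb-bs share of beta globin UMIs (right), in percent with 95% exact intervals, by range of late erythroid UMIs per 10000 outside globins and by library. Ranges with under 10 cells or under 50 UMIs are not drawn. The 2 JAK2WT lines lie above the JAK2V617F lines on the left, and the Hbb-bs share is highest in the latest range, at 76.97% and 76.9%.

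Within the beta pair, Hbb-bs made up most of the UMIs in erythroid cells of each library, and with JAK2V617F more in later cells. Its share of Hbb-bs plus Hbb-bt was 63.7% (62.5 to 64.9), 66.9% (66.7 to 67.1), 58.3% (56.01 to 60.6) and 72.2% (71.7 to 72.8). In wild type with JAK2V617F it was 54.7%, 61.2%, 67.1% and 76.97% from the earliest to the latest range. In Gli1 knockout with JAK2V617F it was 46.8%, 56.3% and 76.9% over the 3 upper ranges. In Gli1 knockout with JAK2WT it was 32.4% (24.8 to 40.8, from 142 UMIs) in the range 10 to 30 and 60.7% (58.3 to 63.0) in the range 30 to 100. Grouped by adult globin UMIs per cell, the share in that library ran from 52.8% to 59.4% with no steady rise. In wild type with JAK2WT it was 61.9% (58.3 to 65.5) and 63.5% (62.1 to 64.8) in the same ranges, and the intervals overlapped. These are shares of pooled UMIs, and cells of a range are not replicates.

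The difference in Hbb-bs share between JAK2V617F and JAK2WT was less firm than that in alpha share. It was 3.14 points higher with JAK2V617F in wild type, but 0.128 points higher as a median over cells with at least 50 beta UMIs. In Gli1 knockout it was 13.9 points higher, but without the cells in the latest range it was 54.8% with JAK2V617F and 58.4% with JAK2WT, which is the other way.

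Within the alpha pair, Hba-a1 made up 75.7% (74.5 to 76.98), 74.8% (74.5 to 74.996), 79.8% (77.7 to 81.8) and 58.7% (58.0 to 59.5) of alpha UMIs in erythroid cells. The low value of Gli1 knockout with JAK2V617F came with its latest cells: in the 11 cells of the latest range Hba-a1 made up 53.1% (52.2 to 53.9), and in the ranges 30 to 100 and 10 to 30 of that library 76.7% and 77.7%. The same step was seen in wild type with JAK2V617F, with 75.9% in the range 30 to 100 and 63.4% (62.5 to 64.4) in the latest. The transcripts of the pair share much of their 3′ sequence, so these values depend on how the authors' counting placed reads.

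The embryonic-type globins were close to undetected. Hba-x had 0 UMIs in the kept cells of all 4 libraries. In erythroid cells a floor of 3 UMIs corresponds to 2.86, 0.166, 4.21 and 3.37 CPM. Hbb-bh1 had 2 UMIs, both in 1 cell of the Slc4a1 Cldn13 cluster in wild type with JAK2V617F, and 0 elsewhere. Hbb-y had 1, 9, 0 and 7 UMIs in kept cells. In wild type with JAK2V617F 8 of the 9 lay in 6 erythroid cells, whereas in Gli1 knockout with JAK2V617F all 7 lay in 4 HSC/MPP cells and 0 in erythroid cells. No fold is given between counts this small.

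Hbb-bt was the predominant globin message in stem and multipotent progenitors (HSC/MPP). HSC/MPP were clusters 15 and 17, named by markers such as Hlf, Meis1 and Cd34, with 322, 499, 537 and 2298 cells. Hbb-bt measured 26.8 (21.4 to 33.0), 73.1 (66.3 to 80.4), 17.0 (14.4 to 19.97) and 47.8 (45.4 to 50.3) CPM in them. In granulocyte-monocyte progenitors and promyelocytes (GMP) it measured 0.907, 14.6, 0.743 and 3.64 CPM. HSC/MPP were above GMP by 29.5-fold (12.2 to 93.2), 4.99-fold (4.15 to 6.04), 22.9-fold (12.1 to 48.7) and 13.1-fold (9.90 to 17.8). For Hbb-bs the same ratio was 2.16 (0.910 to 5.25), 1.29 (1.09 to 1.52), 1.64 (0.781 to 3.47) and 1.15 (0.849 to 1.56), and the interval took in 1 in 3 libraries. In GMP of Gli1 knockout with JAK2V617F, 1 cell held 92 of the 180 adult globin UMIs. Without it Hbb-bt there was at 1.98 CPM, and the Hbb-bt ratio of that library was 24.2. Leaving out the GMP cell highest in globin of each library gave Hbb-bs ratios of 3.94, 1.48, 1.87 and 1.74.

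GMP is a low reference, and other classes came nearer to HSC/MPP. With JAK2V617F in wild type, Hbb-bt measured 74.0 CPM (62.8 to 86.7) in mast cells and basophils, 65.1 (56.1 to 75.1) in neutrophils and 94.4 (43.2 to 179, from 9 UMIs) in mesenchymal stromal cells, so HSC/MPP did not stand apart there. Among the wild-type cells with JAK2WT, plasmacytoid dendritic cells had Hbb-bt at 15.02 CPM (12.4 to 18.0), 63.9% of their adult globin UMIs and 16.6-fold above GMP (6.90 to 52.0). Of their 115 Hbb-bt UMIs 75 lay in 1 cell that held no other adult globin UMI, and without it the level was 5.23 CPM. In plasmacytoid dendritic cells of Gli1 knockout with JAK2WT it was 3.83 CPM and 41.7% of adult globin.

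**Figure D3:**
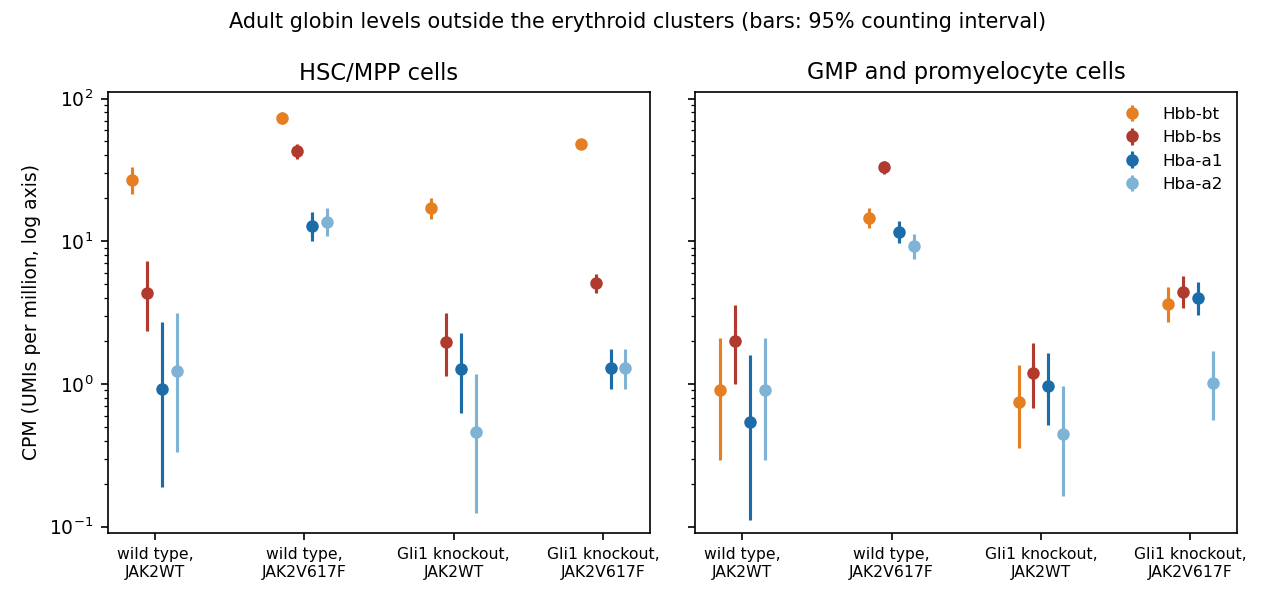
CPM (log axis) of the 4 adult globins with exact Poisson 95% intervals in HSC/MPP (left) and GMP and promyelocytes (right) by library. Hbb-bt is the highest of the 4 in HSC/MPP of each library, at 26.8, 73.1, 17.0 and 47.8 CPM, and is not set apart in the right panel.

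The make-up of the globin RNA differed between HSC/MPP and erythroid cells of the same library. The Hbb-bs share of beta UMIs in HSC/MPP was 13.9% (7.79 to 22.2), 36.8% (33.1 to 40.6), 10.3% (6.12 to 16.0) and 9.63% (8.26 to 11.1). In GMP it was 68.8%, 69.2%, 61.5% and 55.0%, beside the erythroid 63.7%, 66.9%, 58.3% and 72.2%. The alpha share in HSC/MPP was 6.48%, 18.6%, 8.33% and 4.65%, against 33.3%, 30.5%, 42.2% and 38.3% in GMP. Without the 1 GMP cell named above, the last GMP values were 59.7% (Hbb-bs) and 23.9% (alpha). The intervals of HSC/MPP lay below the GMP values for both shares in each library. Wild type with JAK2V617F, with the most erythroid cells and the most globin in other types, was the library where HSC/MPP came closest to the erythroid make-up.

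**Figure D4:**
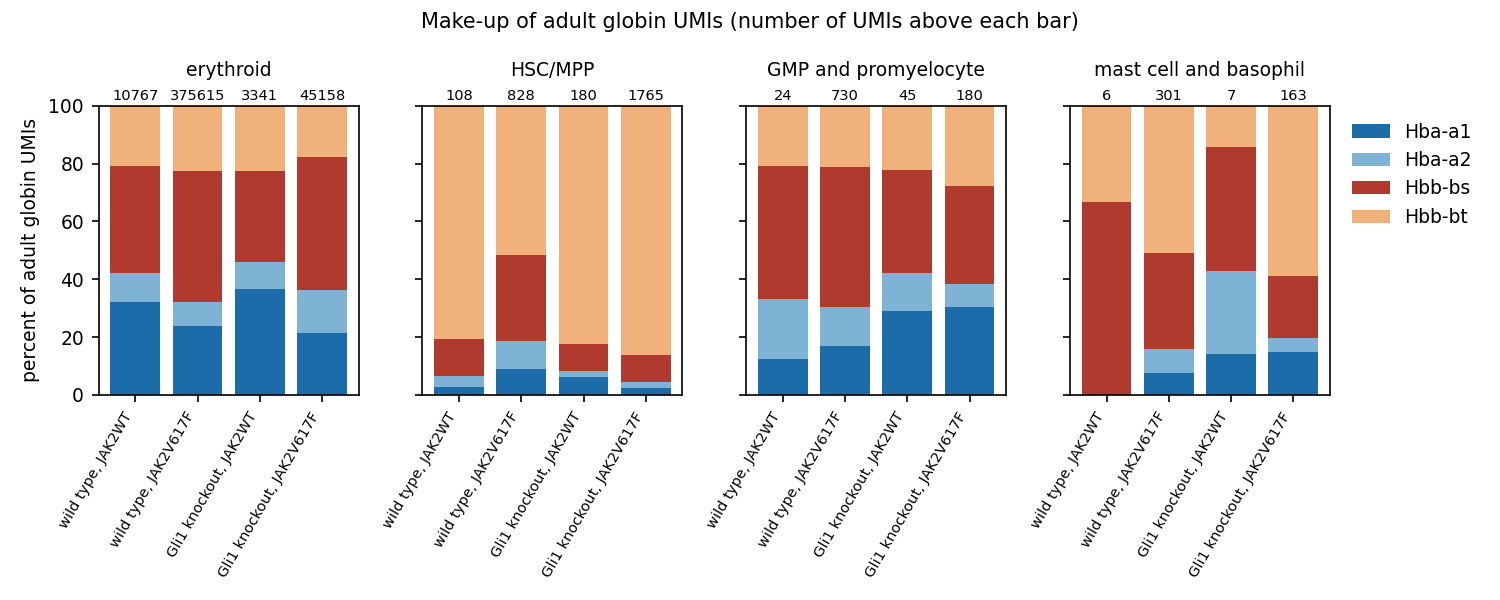
Percent of adult globin UMIs from Hba-a1, Hba-a2, Hbb-bs and Hbb-bt in 4 cell classes by library, with the number of UMIs above each bar. Hbb-bt makes up 80.6%, 51.4%, 82.2% and 86.2% in HSC/MPP and 20.8%, 21.4%, 22.2% and 27.8% in GMP and promyelocytes. The bars of mast cells and basophils with JAK2WT rest on 6 and 7 UMIs.

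The Hbb-bt UMIs of HSC/MPP were concentrated in a small number of cells. Of these cells 289 of 322, 345 of 499, 472 of 537 and 1855 of 2298 had 0, and 2, 26, 6 and 77 had 5 or more, a limit set after the values were seen. The highest cell held 31, 32, 21 and 40. The 77 cells of Gli1 knockout with JAK2V617F held 934 Hbb-bt UMIs beside 12 of Hbb-bs and 6 of both alpha genes, and 74 of them had 0 alpha UMIs. The 26 cells of wild type with JAK2V617F held 233 Hbb-bt, 7 Hbb-bs and 11 alpha UMIs. In wild type with JAK2WT, 44 of the 87 UMIs lay in 2 cells, so that value is the least secure. Without the cells of 5 or more, Hbb-bt was at 13.3, 35.0, 9.55 and 19.2 CPM, and in wild type with JAK2V617F Hbb-bs, at 43.7 CPM, was then the higher of the pair.

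In the HSC/MPP cells with 5 or more Hbb-bt UMIs, Ermap, an erythroid membrane protein, had 0 UMIs in each library. Ermap was also low, at 0.803 CPM or less, in the cells with 0 Hbb-bt UMIs. Klf1 in Gli1 knockout with JAK2V617F was at 2.56 CPM in the 77 cells and 2.01 CPM in the cells with 0 Hbb-bt UMIs. Hlf, a stem cell factor, was at 135 and 90.3 CPM and Ifitm1 at 1798 and 1065 CPM, while Mpo, a granulocyte gene, was at 492 and 1039 CPM. Cd34, at 401 and 414 CPM, and Kit, at 124 and 119 CPM, were about level there, and Pf4 was at 90.4 and 28.4 CPM. In the corresponding cells of the other 3 libraries Mpo was also lower and Ifitm1 higher, while Pf4 was lower. These were 2, 26 and 6 cells, and they held 5, 126 and 74 UMIs of Mpo and 14, 583 and 104 of Ifitm1. Pf4 had only 0, 1 and 1 UMIs in them. Hlf was about level in wild type with JAK2V617F, at 78.9 and 75.3 CPM. Since these cells were picked on a globin, the values describe them and test nothing.

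The higher Hbb-bt level of HSC/MPP was not accompanied by greater depth. HSC/MPP had medians of 9583, 11330, 14930 and 12867 UMIs per cell, below the 20824, 24865, 34144 and 26803 of GMP. A UMI of Hbb-bt was found in 10.2%, 30.9%, 12.1% and 19.3% of HSC/MPP and 1.85%, 25.6%, 2.55% and 5.30% of GMP. After thinning each cell to 2000 UMIs it was found in 2.67%, 11.7%, 2.43% and 6.33% of HSC/MPP and 0.377%, 3.55%, 0 of 391 cells and 0.396% of GMP. The 2000-UMI values left out 22, 4, 2 and 55 of the HSC/MPP cells. A floor of 3 in 391 cells corresponds to 0.767%.

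Between libraries, Hbb-bt in HSC/MPP was higher with JAK2V617F by 2.73-fold (2.17 to 3.48) in wild type and 2.81-fold (2.37 to 3.35) in Gli1 knockout. In wild type it was the 1 member of 7 that reached 50 CPM, and it was at least 2-fold higher on the log2 scale with 10 CPM added, against 0.187% of 3213 genes (0.529% were lower). In Gli1 knockout it stayed under 50 CPM in both libraries, so 0 members were among the 3134 genes counted, of which 0.0638% were higher and 0.16% lower. GMP of the JAK2V617F libraries also held more Hbb-bt, and how much of the HSC/MPP difference is stray RNA was not tested. Cluster 15 held 1466 of the 2298 HSC/MPP cells in Gli1 knockout with JAK2V617F and 156 of 322, 252 of 499 and 299 of 537 in the others. Within cluster 15 Hbb-bt measured 52.6, 102, 15.7 and 66.9 CPM, and within cluster 17 12.1, 50.1, 18.1 and 22.9 CPM. In Gli1 knockout the step with JAK2V617F was thus larger in cluster 15 than in cluster 17. Gli1 knockout was lower than wild type, at 0.636-fold (0.484 to 0.838) with JAK2WT and 0.654-fold (0.587 to 0.729) with JAK2V617F. With JAK2WT this was not shared by all parts: without the highest wild-type cell Hbb-bt was at 17.3 CPM there, beside 17.0 CPM in the knockout, and in cluster 17 the knockout was the higher. Neither passed 2-fold: 1 member was counted with JAK2V617F, where 0.224% of genes were higher and 0.128% lower, and 0 with JAK2WT, where 0.254% were higher and 0.35% lower.

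A cycling cluster that stayed unnamed, led by histone and mitosis genes beside Pf4, had a like make-up. It held 131, 253, 358 and 662 cells, and Hbb-bt measured 9.47, 63.6, 18.0 and 42.2 CPM there with Hbb-bs shares of 16.7%, 31.1%, 10.7% and 10.7%. Mast cells and basophils with JAK2V617F were intermediate, with Hbb-bs shares of 39.5% and 26.7% and Hbb-bt at 74.0 and 19.5 CPM.

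Outside the erythroid clusters the adult globins were low, and highest in wild type with JAK2V617F. All kept cells there, with HSC/MPP and the cycling cluster included, measured 14.7, 123, 14.2 and 33.3 CPM together. In Gli1 knockout with JAK2V617F, HSC/MPP held 1765 and the cycling cluster 799 of these 3318 UMIs. The level depended on the cells kept: it was 291 CPM in wild type with JAK2V617F with predicted doublets kept, and without the 1% of cells highest in globin it was 6.96, 85.9, 7.48 and 21.0 CPM in the 4 libraries. After thinning to 2000 UMIs, 2.34%, 18.3%, 2.35% and 5.45% of them had an adult globin UMI. Among named classes with at least 20 cells, the median class measured 8.63, 146, 16.5 and 13.1 CPM, the last being GMP, at 6.44 CPM without its highest cell. The highest class was HSC/MPP at 33.2 CPM in wild type with JAK2WT and mesenchymal stromal cells in the other 3, at 713, 202 and 63.3 CPM. The 713 CPM came from 68 UMIs in 20 cells, 47 of them in 1 cell, and was 220 without it. The share of erythroid cells and the stray level moved together in wild type with JAK2V617F, and their link was not tested. GMP of that library had an alpha share of 30.5% and an Hbb-bs share of 69.2%, beside 32.0% and 66.9% in its erythroid cells.

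An unnamed cluster of low UMI counts was high in wild type with JAK2V617F. Cluster 18, with medians of 1139 to 1400 UMIs per cell by library, measured 23.1, 2657, 42.4 and 138 CPM of adult globin from 66, 53, 681 and 198 cells. In wild type with JAK2V617F that was a mean of 4.40 adult globin UMIs per cell, and 27.04% of them were alpha. No cell type is given to these barcodes.

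GFP, the marker of the vector, was seldom detected as RNA. Of erythroid cells, 0 of 63, 45 of 1231 (3.66%), 0 of 49 and 2 of 50 had a GFP UMI. In wild type with JAK2V617F the 45 cells measured 29662 CPM of adult globin with an alpha share of 30.6% (29.97 to 31.3), and the 1186 without a GFP UMI 20490 CPM with 32.1% (31.9 to 32.2). The median depth was 15516 against 13160 UMIs, so cells with a GFP UMI were also deeper. In Gli1 knockout with JAK2V617F the order was the other way, with 4618 CPM in the 2 cells with a GFP UMI and 53701 CPM in the 48 without. Cells without a GFP UMI are not shown to be untransduced.

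Among the 6 genes whose levels followed the adult globins most closely over 70 sums of a cell class in a library, by Pearson's r of log2(CPM + 10) among 8418 genes, were Rhag (0.890), Ermap (0.886), Add2 (0.880) and Cldn13 (0.871). Add2 is the beta adducin of the membrane skeleton, and Rhag is the Rh-associated glycoprotein. The 4 adult globins themselves reached 0.955 to 0.977 against their sum. The points share libraries and depth, and without the 4 erythroid points r fell to between 0.589 and 0.699 for these 4 genes. Rhag, Ermap and Cldn13 were also among the markers that named the erythroid clusters, so their high level there is partly built in.

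Of the heme synthesis and iron list, 16, 16, 16 and 15 of 18 genes were measured in the comparisons of JAK2V617F over JAK2WT in wild type, the same in Gli1 knockout, Gli1 knockout over wild type with JAK2V617F, and the same with JAK2WT. Of these 0, 2, 1 and 0 were at least 2-fold higher and 0 lower in each, with medians of 0.56, 0.38, -0.09 and 0.10 on the log2 scale beside 0.05, 0.01, -0.02 and 0.04 over all genes measured. Over all genes measured 1.78%, 2%, 0.958% and 0.625% were at least 2-fold higher in these comparisons and 0.5%, 0.802%, 0.192% and 0.625% lower, the background for each list here and below. Alas2, the erythroid first enzyme of heme synthesis, measured 32.4, 63.8, 16.8 and 143 CPM in erythroid cells, in the same order of libraries as the adult globins. That order did not hold by range. In the range 30 to 100 Alas2 measured 118, 98.6, 68.9 and 44.0 CPM, lowest in Gli1 knockout with JAK2V617F. In the latest range of that library it measured 1584 CPM, and Alas2 is in the late erythroid list that set the ranges. Tfrc, the transferrin receptor, was 0.99 higher on the log2 scale with JAK2V617F in wild type at 995 against 495 CPM. Fech, which inserts iron into the porphyrin, was 0.85 higher at 154 against 81.1 CPM.

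Of the regulators of globin genes, 17, 17, 17 and 14 of 20 were measured, and 0, 2, 0 and 0 were at least 2-fold higher and 1, 1, 0 and 0 lower. Myb, a factor of early progenitors, was the lower one in both genotypes, at 68.8 against 236 CPM in wild type and 78.7 against 226 CPM in Gli1 knockout. Sox6, which acts with Bcl11a on embryonic-type globins, was 0.89 higher in wild type with JAK2V617F, at 98.9 against 48.7 CPM, and 1.55 higher in Gli1 knockout at 118 against 33.6 CPM. Klf1 was 0.39 lower in Gli1 knockout than in wild type with JAK2V617F, and Gata1 measured 101.1, 145, 135 and 129 CPM.

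For globin chaperones, protein handling and redox, 7, 8, 8 and 6 of the 10 genes in the table were measured, with 0, 2, 1 and 0 at least 2-fold higher and 0 lower in each. Bpgm, which makes the 2,3-bisphosphoglycerate that loosens oxygen from haemoglobin, was at 72.0 CPM in Gli1 knockout with JAK2V617F and 15.8 CPM in wild type with JAK2V617F, a log2 ratio of 1.67. It is in the late erythroid list, and the latest range held 11 of 50 cells in the first library and 31 of 1231 in the second. The ratio without those cells is not given here. Cyb5r3, which keeps haemoglobin iron reduced, was at 160 against 77.3 CPM with JAK2V617F in wild type. Ahsp, the alpha chain chaperone, was not analysed here.

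Of the late erythroid list, 15, 16, 16 and 13 of 17 genes in the table were measured, and 1, 8, 3 and 0 were at least 2-fold higher and 0, 0, 0 and 1 lower. Slc4a1 was lower with JAK2WT in Gli1 knockout than in wild type at 53.3 against 118 CPM. The list set the ranges above, so it moves with the cells' stage by construction. Of the clearance genes for haemoglobin and heme 2, 2, 1 and 2 of 11 were measured, with 0 called, and of other globins 0 reached 50 CPM. Hbq1b, a theta-type globin, had 1, 87, 1 and 12 UMIs in erythroid cells.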

How the data were processed

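The authors deposited UMI counts per gene and barcode for 4 mRNA libraries of 10x Genomics 3′ chemistry. The submitters' processing notes name Cell Ranger 4.0.0 and Seurat 4.0.4; the aligner settings are not given in the sources used here. The 4 hashtag libraries were not analysed here. Barcodes with at least 500 genes, 1000 UMIs and under 10% mitochondrial UMIs were kept after removal of 791, 170, 229 and 455 predicted doublets. All globin genes were left out of clustering with scanpy 1.11.5 under Python 3.11.15, and clusters were named from marker lists. Counts were summed over cells as CPM with exact Poisson intervals, and shares have exact Clopper-Pearson intervals (scipy 1.17.1). Log2 ratios are of CPM + 10, over genes at 50 CPM or more in either library, with 2-fold called. With 1 library per group no test was made, and intervals cover counting error only. The count summaries were run on simulated counts drawn independently from pooled means. Such counts cannot show how the summaries behave where 1 cell holds much of a sum. Genes named were the members, the 6 genes most like their sum, the 2 highest and 2 lowest of each list in 2 comparisons, and Alas2, Klf1, Gata1, Ahsp and GFP; others named were chosen after their values were seen. Some genes that this rule names are not reported here. The members and lists were chosen with earlier results of these data known.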

Additional observations from a re-analysis of the deposited data

Results flagged for a closer look

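The difference between Gli1 knockout and wild type had opposite signs with JAK2V617F and with JAK2WT for 3 values in erythroid cells, and the difference between these differences was not tested, since each group is 1 library. The adult globin level differed by a log2 ratio of 1.29 with JAK2V617F and -1.13 with JAK2WT. The Hbb-bs share of beta UMIs differed by 5.37 percentage points with JAK2V617F and -5.42 with JAK2WT. The Hba-a1 share of alpha UMIs differed by -16.02 percentage points with JAK2V617F and 4.02 with JAK2WT. In Gli1 knockout with JAK2V617F, 77.9% of the erythroid adult globin UMIs lay in 11 cells. Without cells of that stage the opposite signs did not remain: with JAK2V617F and with JAK2WT the differences were then -0.67 and -0.98 (level), -11.3 and -4.81 points (Hbb-bs share), and 1.07 and 3.83 points (Hba-a1 share).

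Barcodes outside the cell filter also held adult globin, with 3221, 8799, 655 and 10958 UMIs. In Gli1 knockout with JAK2V617F, 10264 of these lay in 1 barcode. Such barcodes enter no comparison above.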

How the results depend on the processing

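Of 184 values recomputed under another setting, 106 stayed the same, 76 moved and 2 reversed. Same means within the counting interval or, for a log2 ratio, about as near the main value as the interval's limits. No paired analysis was possible because each group had 1 library, and for the same reason no library could be left out. In what follows, the 4 log2 ratios of adult globin are JAK2V617F over JAK2WT in wild type, the same in Gli1 knockout, Gli1 knockout over wild type with JAK2V617F, and the same with JAK2WT. Without cells of the latest range, a setting chosen after seeing the data, they were 1.07, 1.38, -0.67 (reversed) and -0.98, with alpha shares of 31.8% in wild type and 39.2% in Gli1 knockout with JAK2V617F and Hbb-bs shares of 66.1% and 54.8%. Within the Slc4a1 Cldn13 cluster the log2 ratio of the genotypes with JAK2V617F was then -0.32 (reversed). With a stricter cell filter they were 1.11, 2.76, 0.79 and -0.86. Alpha shares were then 31.8%, 47.7% and 37.0% and Hbb-bs shares 66.5%, 53.7% and 69.6% in wild type with JAK2V617F and the Gli1 knockout libraries, and other cells measured 11.9, 111 and 13.2 CPM in the first 3 libraries. With doublets kept they were 1.19, 3.25, 1.08 and -0.98, the Hbb-bs share of Gli1 knockout with JAK2V617F was 71.7%, and other cells measured 16.4 and 291 CPM in wild type and 49.9 CPM in Gli1 knockout with JAK2V617F. With a marker gate in place of clusters they were 0.96, 3.53, 1.22 and -1.34, and other cells measured 149 CPM in wild type with JAK2V617F and 12.8 CPM in Gli1 knockout with JAK2WT. With globins kept in the clustering the ratios in Gli1 knockout and of the genotypes with JAK2V617F were 3.34 and 1.22, other cells of wild type with JAK2V617F measured 102 CPM and the Hbb-bs share of its HSC/MPP was 32.0%. Without the 1% of cells highest in globin they were 1.17, 3.59, 1.017 and -1.40. Alpha shares were then 44.0% and 32.2% in wild type, Hbb-bs shares 62.3% and 66.1% in wild type and 71.0% in Gli1 knockout with JAK2V617F, other cells 6.96, 85.9, 7.48 and 21.0 CPM, and the Hbb-bs shares of Gli1 knockout HSC/MPP 17.2% and 13.4%. Per 1000000 UMIs outside globins the ratios in Gli1 knockout and of the genotypes with JAK2V617F were 3.50 and 1.33. As medians over cells the alpha shares were 43.9%, 32.7% and 42.5% in the first 3 libraries, and the Hbb-bs shares 66.1% and 66.2% in wild type and 61.2% in Gli1 knockout with JAK2V617F. Thinned to 1000 UMIs, 1.92%, 11.9%, 1.80% and 3.39% of other cells had an adult globin UMI. The causes of these shifts were not tested. The numbers of erythroid cells, 63, 49 and 50 in all libraries but wild type with JAK2V617F, limit the precision there, and low counts that of the embryonic-type genes.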
